A study of Homo sapiens with 6 samples.

Results

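In HK-2, an immortalised human cell line from the proximal tubule of the kidney, RNA levels were examined for 10 genes of transforming growth factor beta (TGF-beta) signalling: the ligands TGFB1, TGFB2 and TGFB3, the receptors TGFBR1 and TGFBR2, the signal carriers SMAD2 and SMAD3, the inhibitor SMAD7, and the target genes CCN1 and CCN2. The genes were chosen by name, with earlier results of these data known. Each had 1 row under its symbol in the deposited count table, which holds 31369 genes, and 1 row in the FPKM table. The control group (NC) holds 3 samples whose genotype entry is WT. The overexpression group (OE) holds 3 samples whose genotype entry is PPM1K overexpress. All 6 samples carry the treatment entry Chronic kidney disease and the time Day 10. Their titles name shControl and shPPM1K, and their cell line entries carry different numbers after HK, while the cell type entry is HK-2 throughout. According to the methods, HK-2 cells took up a *PPM1K* plasmid by lipofection, and no selection of the cells that took it up is described. What the control cells received is not given in the sources used here. Nothing in the labels says that the samples came from separate cultures, so p-values measure the spread between these samples, which may be technical. In bulk RNA, fewer cells expressing a gene and less RNA of it per cell cannot be told apart. The paper also measured some apoptosis genes by RT-qPCR in the same RNA. G0S2, VEGFA, NUPR1 and GADD45A rose by both methods, GADD45A without significance. TRIB3 rose by sequencing and fell by RT-qPCR. IL6, MAGED1, CCL2 and TP53INP1 fell by sequencing and rose by RT-qPCR, MAGED1 without significance. The TGF-beta genes examined here are not named among those measured, so their directions rest on sequencing alone.

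TGF-beta is secreted in a latent form that is held in the matrix until integrins or other factors release it. The free ligand binds the type II receptor TGFBR2, which activates the type I receptor TGFBR1. The receptor then phosphorylates SMAD2 and SMAD3, which join SMAD4 and enter the nucleus to switch genes on or off. SMAD7 is induced by the pathway and blocks the receptors in a feedback loop. CCN1 (also CYR61) and CCN2 (also CTGF) encode secreted matrix proteins, CCN2 is induced by TGF-beta, and both are also targets of the YAP and TEAD transcription factors. In the kidney, TGF-beta and CCN2 are known for their part in tubule injury and fibrosis. *PPM1K* encodes a mitochondrial phosphatase of branched-chain amino acid breakdown.

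The 3 promoters below are shown because their genes changed in different directions: CCN2 and TGFB2 were lower and TGFB1 was higher in OE. They are RefSeq windows of GRCh38.p14 that run from 250 bases before the gene start to 50 bases after it, written 5′ to 3′ on the strand of the gene. Such windows were found for 9 of the 10 members, all but CCN1. Capitals mark the SMAD box CAGAC, the TEAD motif GGAATG and the TATA box TATAAA, each searched on both strands. No marked match overlaps another in the printed windows.
CCN2 (chr6:131951323-131951622, minus strand): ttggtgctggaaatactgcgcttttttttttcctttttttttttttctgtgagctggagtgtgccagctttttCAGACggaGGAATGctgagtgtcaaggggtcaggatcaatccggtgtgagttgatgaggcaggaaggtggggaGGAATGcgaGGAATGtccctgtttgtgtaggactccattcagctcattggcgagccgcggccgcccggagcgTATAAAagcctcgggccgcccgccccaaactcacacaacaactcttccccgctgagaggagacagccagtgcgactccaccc
TGFB2 (chr1:218345086-218345385, plus strand): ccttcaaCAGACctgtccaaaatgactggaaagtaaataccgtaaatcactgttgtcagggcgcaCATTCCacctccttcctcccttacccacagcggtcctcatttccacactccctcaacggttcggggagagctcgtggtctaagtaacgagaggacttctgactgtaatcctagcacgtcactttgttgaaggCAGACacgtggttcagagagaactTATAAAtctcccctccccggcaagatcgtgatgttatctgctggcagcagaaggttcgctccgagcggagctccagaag
TGFB1 (chr19:41353873-41354172, minus strand): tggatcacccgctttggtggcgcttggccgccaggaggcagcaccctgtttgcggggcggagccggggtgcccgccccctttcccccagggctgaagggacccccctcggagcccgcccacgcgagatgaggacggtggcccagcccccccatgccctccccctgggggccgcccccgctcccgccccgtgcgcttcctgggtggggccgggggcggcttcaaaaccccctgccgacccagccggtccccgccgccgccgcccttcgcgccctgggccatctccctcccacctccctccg
The CCN2 window held the TEAD motif 3 times, starting 169, 104 and 95 bases before the gene start, beside a SMAD box at 177 bases before it. The TGFB2 window held the SMAD box at 243 and 53 bases before the start and the TEAD motif, on the other strand, at 185. Both windows held a TATA box, at 32 and 29 bases before the start. The TGFB1 window held none of these 3 motifs, and its GC content was 77.3%, against 54.3% for CCN2 and 51.7% for TGFB2. The SP1 GC box GGGCGG, also searched but not marked, was in the TGFB1 and CCN2 windows and not in that of TGFB2. Of all promoter windows, 45% held it on either strand. Among all 35116 promoter windows of this length, 45.3% held the SMAD box, 14% the TEAD motif and 11.5% the TATA box on either strand. Of the 9 members with a window, 6 had the SMAD box in at least 1 window. The TEAD motif was in 3 (TGFB2, TGFBR1 and CCN2) and the TATA box in 4. TGFBR1 has 8 windows and SMAD3 has 5. These counts are per gene over all its windows, so they cannot be set beside the shares per window. The palindrome GTCTAGAC, found in 0.202% of all windows, was in none of the windows of the members. SMAD7, which was higher in OE, also had the SMAD box and the TATA box. TGFBR2, which was lower, had no SMAD box, TEAD motif or TATA box in its windows. Whether the motifs go with the direction of change was not tested. A match is a description of the letters and not evidence of binding.

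Sequencing gave 34635770 to 36116963 gene counts for an NC sample and 36033404 to 39850802 for an OE sample. PPM1K had 37, 19 and 53 counts in the NC samples and 3294, 3531 and 2919 in the OE samples, so its level followed the genotype entries rather than the titles. NC replicate 2 stood apart: 3551 genes had a count in that sample only, against 449 to 766 in the others, and its count of the noncoding RNA 7SK was 3264, against 242 to 527. Of 10 defining genes of the proximal tubule, none reached an FPKM of 1 in any sample and 6 stayed under 0.1 in all of them, among them the uptake receptor LRP2, which is listed at 0. General and renal epithelial markers were present, 8 of 10 with an FPKM of at least 1 in a sample, and their summed FPKM was 818 to 915 in NC and 705 to 766 in OE. The sum was lower mostly through KRT8 (mean FPKM 289 in NC and 209.5 in OE) and KRT19 (212 and 154). EPCAM, CDH6, CDH16 and CDH1 were also lower, by log2 fold changes of −0.24, −1.82, −0.81 and −1.09. PAX8 (27.7 and 33.5) and KRT7 (35.3 and 45.9) were higher. Each of these genes passed the threshold in edgeR, an adjusted p under 0.05. KRT18 (180.4 and 186) and PAX2 (0.177 and 0.143) did not pass. Fibroblast markers summed to 1.70 to 1.83 in NC and 0.47 to 0.64 in OE, mostly from LUM, while PDGFRA and COL3A1 were listed at 0. Endothelial markers summed to 0.57 to 0.72 in NC and 0.79 to 0.92 in OE, and leukocyte markers to at most 0.21. The part of these differences in the results was not tested.

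Of the 10 genes, 6 were lower in OE (TGFB2, TGFB3, TGFBR1, TGFBR2, SMAD3 and CCN2) and 3 were higher (TGFB1, SMAD7 and CCN1) at an adjusted p under 0.05. SMAD2 did not pass the threshold. The test was edgeR's quasi-likelihood test on the counts, adjusted by Benjamini-Hochberg over all 15878 genes tested, of which 23.7% were lower and 24.9% higher in OE. In either direction 48.6% of the genes tested passed. The share was 56.6% among genes with 100 or more counts on average, as all members had, and 62.2% among those with 500 or more, as 9 members had. The changes were small. None of the 10 had a fold change above 2 or below 0.5, the limit of the study for a differentially expressed gene (DEG), which 5.51% of the genes tested passed along with the adjusted p, and neither DESeq2 nor limma put any member past it. At an unadjusted p under 0.05 the counts were the same, 6 lower and 3 higher. OE over NC, the median log2 fold change was −0.27 for the members and 0.00 over all genes tested. The groups did not overlap in any of the 10, in CPM (counts scaled to the size of each library), where 55.3% of the genes tested had groups that did not overlap. With 3 samples against 3 the exact two-sided permutation test cannot give a p below 0.1, and it gave 0.1 for each member. Without NC replicate 2, 6 members were lower and 2 higher, SMAD7 having dropped out. Below, values per sample stand in the order of replicates 1, 2 and 3 of each group, and log2 fold changes are OE over NC from edgeR with their standard error (SE).

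**Figure D1:**
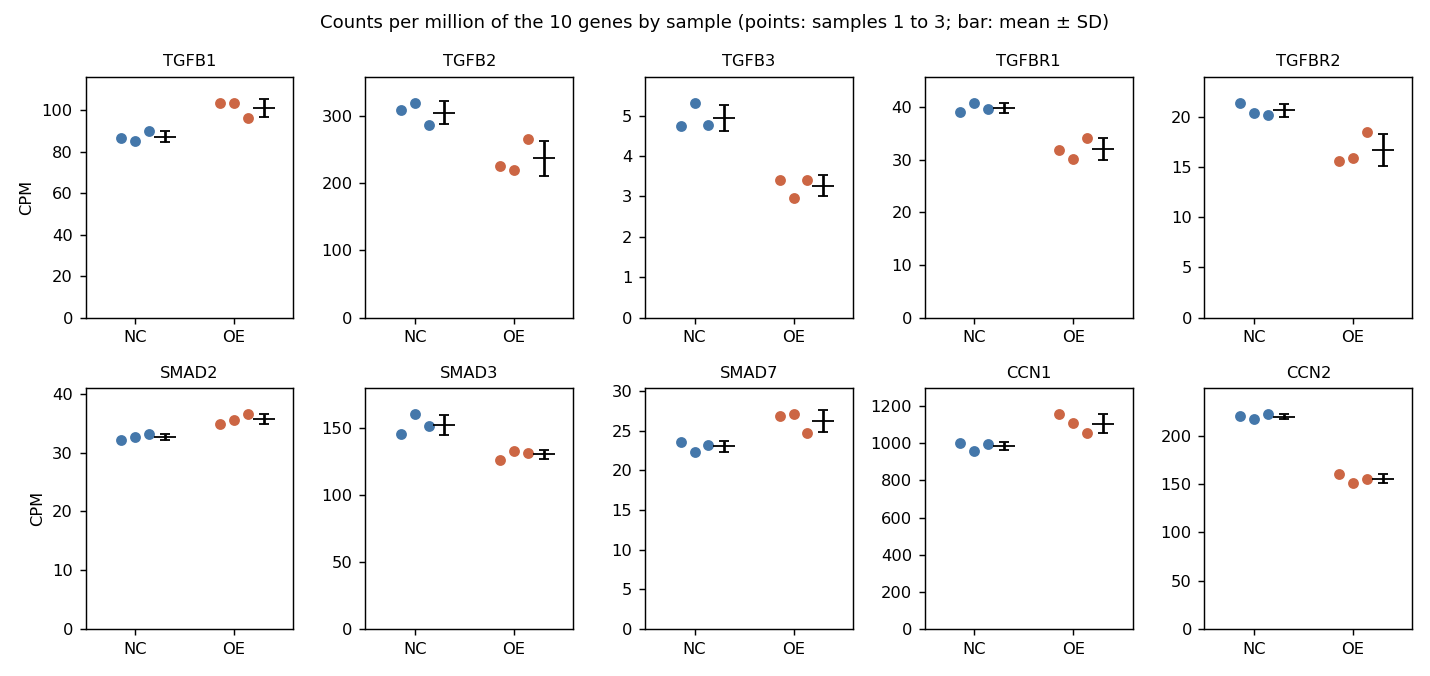
CPM of the 10 genes (vertical axis, from 0) in the 3 NC samples (blue) and the 3 OE samples (orange), with the mean ± SD of each group in black. The groups are apart in every panel, but the distance is small beside the level: CCN2 fell from 220.0 to 156 and CCN1 rose from 985 to 1106.

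The ligands moved in opposite directions. TGFB1 (ENSG00000105329.11, chromosome 19, 41301587 to 41353922, minus strand) encodes the ligand most often studied in kidney fibrosis. Its CPM was 86.6, 85.0 and 90.1 for NC and 103, 104 and 96.2 for OE. All OE samples lay above all NC samples, with OE replicate 3 the lowest of them. The log2 fold change was 0.21 ± 0.05 (SE, adjusted p = 0.00191), an increase of 15.8%. TGFB2 (ENSG00000092969.12, chromosome 1, 218345336 to 218444619, plus strand) encodes a ligand that needs the co-receptor TGFBR3 for strong binding to TGFBR2. Its CPM was 309, 319.5 and 287 for NC and 226, 219 and 266 for OE. The OE samples were all below the NC samples, but OE replicate 3 came close to the lowest NC sample. The log2 fold change was −0.37 ± 0.06 (SE, adjusted p = 7.2e-05). It was between −0.46 and −0.31 over 17 alternative analyses, the largest fall being found without OE replicate 3. TGFB3 (ENSG00000119699.8, chromosome 14, 75958097 to 75983011, minus strand), the third ligand, was the least counted member. Its CPM was 4.74, 5.31 and 4.76 for NC and 3.41, 2.96 and 3.41 for OE. The lowest of its counts was 117, where counting error alone is 9.25% of the value. The log2 fold change was −0.60 ± 0.14 (SE, adjusted p = 0.00102), the largest among the members. With limma on log2(FPKM + 1), a scale that understates changes of genes this low, it was −0.24 and still passed. All 3 ligand genes overlap other annotated genes, among them HNRNPUL1 and TMEM91 for TGFB1, TGFB2-AS1 for TGFB2 and IFT43 for TGFB3, all on the other strand. On the same strand, a gene without a symbol overlaps TGFB1 and TGFB2-OT1 overlaps TGFB2, which no strand setting would separate. The libraries were stranded, but the strand setting of the counting is not given in the sources used here, so the shares of the overlapping genes in these counts are uncertain.

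Both receptors were lower in OE and by nearly the same amount. TGFBR1 (ENSG00000106799.13, chromosome 9, 99104038 to 99154192, plus strand), the kinase that phosphorylates the SMADs, had a CPM of 39.0, 40.8 and 39.6 for NC and 31.8, 30.2 and 34.2 for OE. This was a log2 fold change of −0.31 ± 0.07 (SE, adjusted p = 5.2e-04). TGFBR2 (ENSG00000163513.19, chromosome 3, 30606601 to 30694142, plus strand), the receptor that first binds the ligand, had a CPM of 21.4, 20.4 and 20.2 for NC and 15.6, 15.9 and 18.5 for OE. The change came to −0.31 ± 0.08 (SE, adjusted p = 0.00349) on the log2 scale. As for TGFB2, OE replicate 3 was the OE sample closest to the controls in both receptor genes, and the groups still did not overlap. TGFBR1 overlaps the RNA5SP290 pseudogene and TGFBR2 the KLHL25P1 pseudogene, both on the other strand. The fall was 19.4% for each receptor gene.

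The SMAD genes did not move together. SMAD3 (ENSG00000166949.17, chromosome 15, 67063763 to 67195173, plus strand) encodes the carrier that binds DNA directly. Its CPM was 146, 160.4 and 151 for NC and 127, 133 and 132 for OE. Each OE sample was below each NC sample, and the log2 fold change was −0.22 ± 0.05 (SE, adjusted p = 0.00102). SMAD2 (ENSG00000175387.16, chromosome 18, 47808957 to 47931146, minus strand), its close relative, had a CPM of 32.2, 32.7 and 33.2 for NC and 34.9, 35.6 and 36.6 for OE. The OE samples were above the NC samples, but the log2 fold change of 0.13 ± 0.06 (SE, adjusted p = 0.101) did not pass the threshold, with all samples or under any of the 17 alternatives. SMAD7 (ENSG00000101665.10, chromosome 18, 48919853 to 48950965, minus strand), the feedback inhibitor, had a CPM of 23.6, 22.3 and 23.2 for NC and 26.9, 27.1 and 24.7 for OE. OE was higher by 0.19 ± 0.07 (SE, adjusted p = 0.0376) on the log2 scale. This call was the least secure of the 9: it was lost in 10 of 17 alternatives, among them DESeq2 with an adjusted p of 0.054. The 10 include the fits without NC replicate 2 (0.0997), NC replicate 3 (0.065), OE replicate 1 (0.097) or OE replicate 2 (0.115), all by edgeR. Over the 17 alternatives its adjusted p was 0.015 to 0.929 and its log2 fold change 0.15 to 0.23. SMAD7 overlaps no other annotated gene, while SMAD2 overlaps the MTCO2P2 pseudogene and 3 genes without a symbol, and SMAD3 overlaps 2 such genes on the other strand.

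The CCN genes changed in opposite directions. CCN2 (ENSG00000118523.6, chromosome 6, 131948176 to 131951372, minus strand), whose printed promoter holds 3 TEAD motifs and a SMAD box, had a CPM of 220.4, 217 and 222 for NC and 161, 151 and 155 for OE. The samples of a group lay close together, with an SD on the log2 scale of 0.0172 in NC and 0.0453 in OE. The log2 fold change was −0.50 ± 0.05 (SE, adjusted p = 3.2e-08), a fold of 0.708. In absolute size the change ranked at the percentile 76.0 of all genes tested, below 82.5 for TGFB3 and above the other members, of which SMAD2 had the lowest percentile, 25.7. CCN2 had the smallest adjusted p of the members, and it passed the threshold under all 17 alternatives. CCN1 (ENSG00000142871.18, chromosome 1, 85580761 to 85584589, plus strand) was the most counted member, with a CPM of 999.7, 960.2 and 994 for NC and 1156, 1109.7 and 1053 for OE. OE was higher by 0.17 ± 0.05 (SE, adjusted p = 0.0112), again on the log2 scale. The call was lost in 4 of 17 alternatives, among them the fit without OE replicate 1 with an edgeR adjusted p of 0.059. CCN1 overlaps no annotated gene, and CCN2 overlaps LINC01013 on the other strand.

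**Figure D2:**
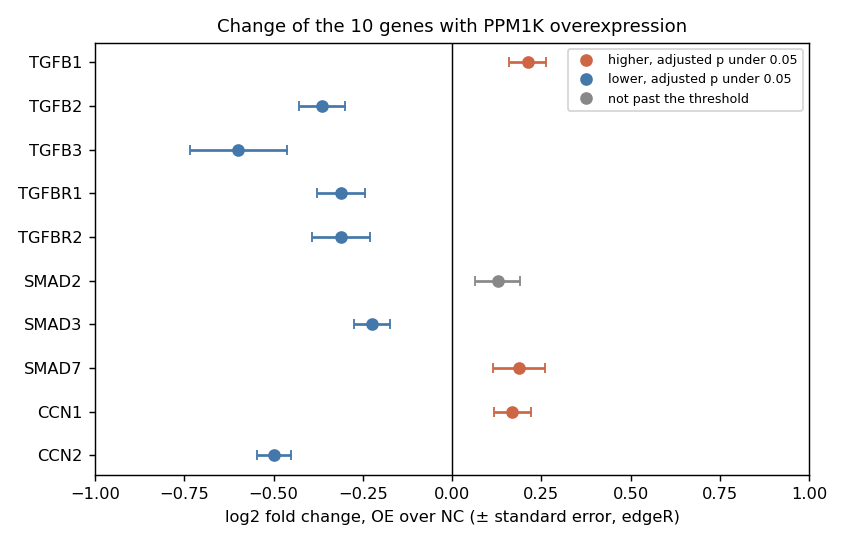
Log2 fold change of OE over NC (horizontal axis) of the 10 genes with its standard error from edgeR, orange where higher and blue where lower at an adjusted p under 0.05 and grey for SMAD2, which did not pass. All points lie between −0.60 (TGFB3) and 0.21 (TGFB1), inside the fold change limit of a DEG at −1 and 1.

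Levels can be set side by side only per length, for which the deposited FPKM was used (fragments corrected for both the length of the transcript and the depth of the library). CCN1 was the highest member, with an FPKM of 245 ± 8.35 in NC and 279 ± 9.15 in OE (SD, n = 3). CCN2 followed with 86.7 ± 1.96 in NC and 62.2 ± 1.56 in OE, then TGFB2 with 46.5 ± 2.29 in NC and 36.6 ± 4.37 in OE and TGFB1 with 24.6 ± 0.919 in NC and 28.9 ± 0.911 in OE. The order of the remaining genes in NC was SMAD3 with 14.1, SMAD7 with 5.38, TGFBR1 with 5.38, TGFBR2 with 2.78, TGFB3 with 0.870 and SMAD2 with 0.827. In NC the FPKM of SMAD7 and TGFBR1 overlapped between samples, as did those of TGFB3 and SMAD2, so these neighbours did not differ beyond their spread. The receptors thus stood below both the ligand genes TGFB1 and TGFB2 and SMAD3, and TGFBR2 below TGFBR1. In OE no neighbours overlapped. SMAD7 was then at 6.21 ± 0.258 and TGFBR1 at 4.40 ± 0.314, and SMAD2 at 0.917 ± 0.0351 was above TGFB3 at 0.583 ± 0.0473. The length used for each gene is not given in the sources used here, and for SMAD2 it matters most. By CPM, which is not per length, the NC mean was 32.7 for SMAD2 and 4.94 for TGFB3. The low rank of SMAD2 and its closeness to TGFB3 therefore rest on those lengths.

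Because members of the same kind moved apart, their balance within a sample was compared on the FPKM scale. TGFB2 was the main ligand transcript in every sample, and TGFB1 made up a larger share in OE. The TGFB1 share of the summed FPKM of the 3 ligands, in percent, was 33.8, 32.6 and 36.3 for NC and 45.5, 46.3 and 39.8 for OE. Its mean was 34.2 ± 1.91 in NC and 43.9 ± 3.57 in OE (SD, n = 3), and the groups did not overlap. The TGFB2 share was 64.5 ± 1.88 in NC and 55.3 ± 3.56 in OE and the TGFB3 share 1.21 ± 0.0537 in NC and 0.882 ± 0.0547 in OE. The summed FPKM itself was 72.0 ± 1.58 in NC and 66.1 ± 3.52 in OE, with groups that overlapped (exact two-sided permutation p = 0.2). The ratio of SMAD3 to SMAD2 was 16.6, 17.8 and 16.7 for NC and 13.3, 13.6 and 13.1 for OE. All OE values were lower than all NC values. The size of this ratio rests on the lengths used for FPKM, but its log2 change was −0.35 from both FPKM and CPM. The ratio of SMAD7 to the sum of SMAD2 and SMAD3 was 0.362 ± 0.0271 in NC and 0.473 ± 0.0303 in OE. CCN2 stood to CCN1 at 0.349, 0.358 and 0.354 for NC and 0.220, 0.215 and 0.233 for OE, so the ratio was lower in all 3 OE samples. Of the 7 quantities compared in this way, the 6 shares and ratios had groups that did not overlap, and a two-sided exact permutation test gave 0.1 for each of them, the smallest possible here, and 0.117 after Benjamini-Hochberg adjustment, so none passed the threshold. These ratios restate the changes of the single genes and are not independent of them.

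**Figure D3:**
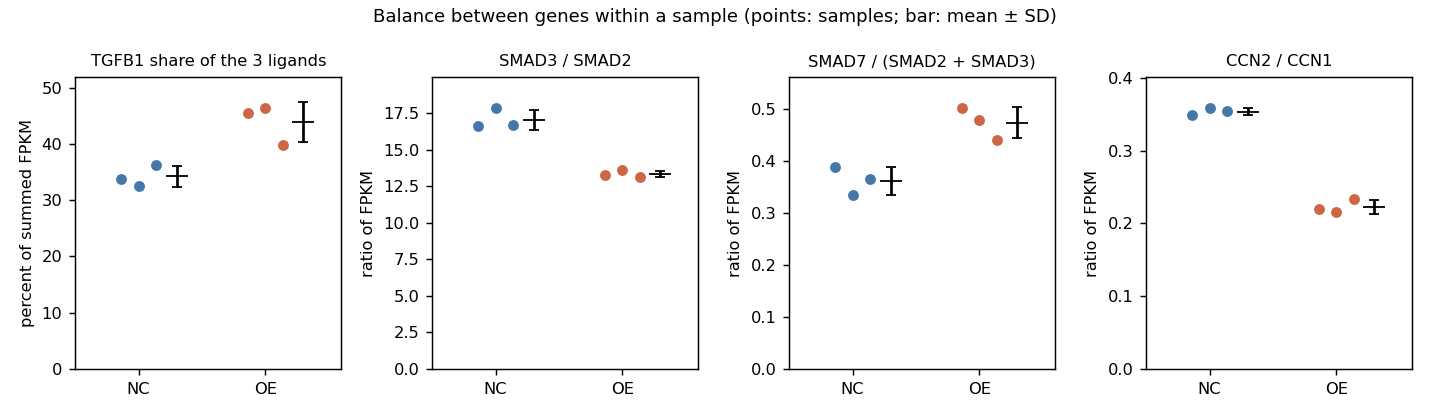
Share of TGFB1 in the summed FPKM of the ligands (percent) and 3 FPKM ratios (vertical axes, from 0) in the NC samples (blue) and OE samples (orange), with mean ± SD in black. The ratio of CCN2 to CCN1 was 0.354 in NC and 0.223 in OE, and in no panel do the groups overlap.

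Around the members, 94 other genes of the superfamily and its targets were read from 7 hand-written lists, of which 80 could be tested. The lists were written with earlier results of these data known, so their counts are descriptions and not independent findings. At an adjusted p under 0.05, 29 were lower in OE and 19 higher, beside 23.7% and 24.9% of all genes tested. Of these, 7 lower and 2 higher genes were DEGs, beside 3.79% and 1.73% of all genes tested. Fold changes here are from edgeR on the counts, and levels are FPKM.

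Among genes listed for TGF-beta latency and activation, 4 of 8 tested were lower and the other 4 did not pass, with a median log2 fold change of −0.26. Of all genes tested, 23.7% were lower and 24.9% higher. ITGB6, a subunit of the integrin that frees latent TGF-beta in epithelia, had an FPKM of 1.66, 1.58 and 1.52 for NC and 0.26, 0.30 and 0.39 for OE. Its log2 fold change of −2.35 ± 0.14 (SE, adjusted p = 1.3e-11) made it a DEG. THBS1, thrombospondin 1, which can also activate the latent complex, had an FPKM of 26.9 ± 0.685 in NC and 13.7 ± 1.04 in OE (SD, n = 3). It changed by −0.99 ± 0.05 (SE, adjusted p = 4.2e-12) on the log2 scale, just short of the limit for a DEG. LTBP2, a matrix protein of the latent TGF-beta binding family, had a log2 fold change of −0.26. Its relatives LTBP3 and LTBP4 did not pass, with log2 fold changes of 0.05 (edgeR adjusted p = 0.465) and −0.01 (edgeR adjusted p = 0.866). LTBP1 and LRRC32 were too low to test. THBS1 and ITGB6 overlap other annotated genes.

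Of the co-receptors and other receptors, 2 of 10 tested were higher and 1 lower, beside 24.9% and 23.7% of all genes tested, with a median of −0.15. The co-receptor endoglin, ENG, changed by 0.50 ± 0.11 (SE, adjusted p = 8.5e-04) on the log2 scale, and ACVR1, a type I receptor for BMPs, by 0.37 ± 0.07 (SE, adjusted p = 3.0e-04). BMPR1A, another BMP receptor, had a log2 fold change of −0.26. Of the other SMADs, SMAD4, the partner of SMAD2 and SMAD3, was lower, at −0.26 ± 0.08 (SE, adjusted p = 0.00654) on the log2 scale. The other 3 tested did not pass, beside 23.7% lower and 24.9% higher of all genes tested. SMAD9 could not be tested. Among inhibitors of the pathway, 3 of 10 tested were higher and 2 lower, beside 24.9% and 23.7% of all genes tested, with a median of −0.06. Log2 fold changes were 0.43 for the decoy receptor BAMBI, 0.24 for the ubiquitin ligase NEDD4L and 0.26 for the SMAD phosphatase PPM1A. They were −0.21 for the ubiquitin ligase SMURF1 and −0.15 for PMEPA1, a feedback inhibitor that sequesters SMADs.

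Textbook target genes of TGF-beta and SMAD signalling were mostly lower. Of 23 tested, 17 were lower and 2 higher, beside 23.7% and 24.9% of all genes tested, and the median log2 fold change was −0.47, against 0.00 over all genes tested. As the list was not chosen blind to these data, this is a description. TAGLN, the actin-binding protein transgelin, had an FPKM of 14.5, 12.8 and 14.1 for NC and 3.41, 3.30 and 3.33 for OE. This is a log2 fold change of −2.06 ± 0.06 (SE, adjusted p = 1.6e-16). TGFBI, a matrix protein named after its induction by TGF-beta, had an FPKM of 49.3, 49.5 and 48.7 for NC and 17.6, 18.1 and 17.1 for OE. On the log2 scale it changed by −1.50 ± 0.05 (SE, adjusted p = 1.9e-15). ID1 and ID3, inhibitors of differentiation that respond above all to BMPs, fell as well. The FPKM of ID1 was 11.1 ± 1.88 in NC and 2.07 ± 0.188 in OE, and its change −2.44 ± 0.13 (SE, adjusted p = 2.9e-12) on the log2 scale, and that of ID3 was 2.26 ± 0.0889 in NC and 0.730 ± 0.0600 in OE, a change of −1.65 ± 0.18 (SE, adjusted p = 1.3e-07). These 4 genes were the DEGs of the list. The 2 higher genes were SNAI2, a transcription factor of epithelial-mesenchymal transition, with a log2 fold change of 0.72, and CDKN1A, the p21 cell cycle inhibitor that p53 also induces, with 0.40. CCN2, a target of the same pathway, fell less than any of these 4 DEGs, by 0.50 on the log2 scale. TAGLN overlaps PCSK7, while TGFBI, ID1 and ID3 overlap no annotated gene.

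Of the remaining CCN genes and the YAP and TEAD pathway, which shares CCN1 and CCN2 as targets, 8 of 14 tested were higher and 1 lower, beside 24.9% and 23.7% of all genes tested, with a median log2 fold change of 0.22. ANKRD1, a YAP target and cardiac ankyrin repeat protein, had an FPKM of 642, 666 and 675 for NC and 1068, 1047 and 1092 for OE. Its log2 fold change was 0.67 ± 0.05 (SE, adjusted p = 1.2e-09). The receptor tyrosine kinase AXL, another YAP target, had a log2 fold change of 0.36, and CCN3, a relative of CCN1 and CCN2, 0.57 ± 0.07 (SE, adjusted p = 9.6e-07). CCN5, which lacks the C-terminal domain of the family, fell from an FPKM of 1.01 to 0.323, which is −1.66 ± 0.19 (SE, adjusted p = 2.5e-07) on the log2 scale, and was a DEG. Within the CCN family CCN1 and CCN3 were thus higher and CCN2 and CCN5 lower, and CCN4 and CCN6 could not be tested. CCN2 was lower while 8 genes of this list were higher. Neither the difference between CCN2 and those genes nor that between this list and the SMAD targets was tested.

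Among other ligands of the superfamily and their antagonists, 4 of 11 tested were higher and 3 lower, beside 24.9% and 23.7% of all genes tested, with a median of 0.27. INHBE, the activin beta E chain, had an FPKM of 1.72 ± 0.0666 in NC and 8.32 ± 0.681 in OE (SD, n = 3) and changed by 2.26 ± 0.09 (SE, adjusted p = 5.0e-14) on the log2 scale. NOG, the BMP antagonist noggin, rose by 1.52 on the log2 scale from an FPKM of 0.600, and BMP4 had −1.04 ± 0.16 (SE, adjusted p = 1.9e-05) from 1.31. These 3 were DEGs. On the log2 scale, GDF15, a distant stress-induced relative, changed by 0.69, BMP1, a protease that trims matrix proteins, by −0.54, and FSTL3, an activin antagonist, by −0.31.

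**Figure D4:**
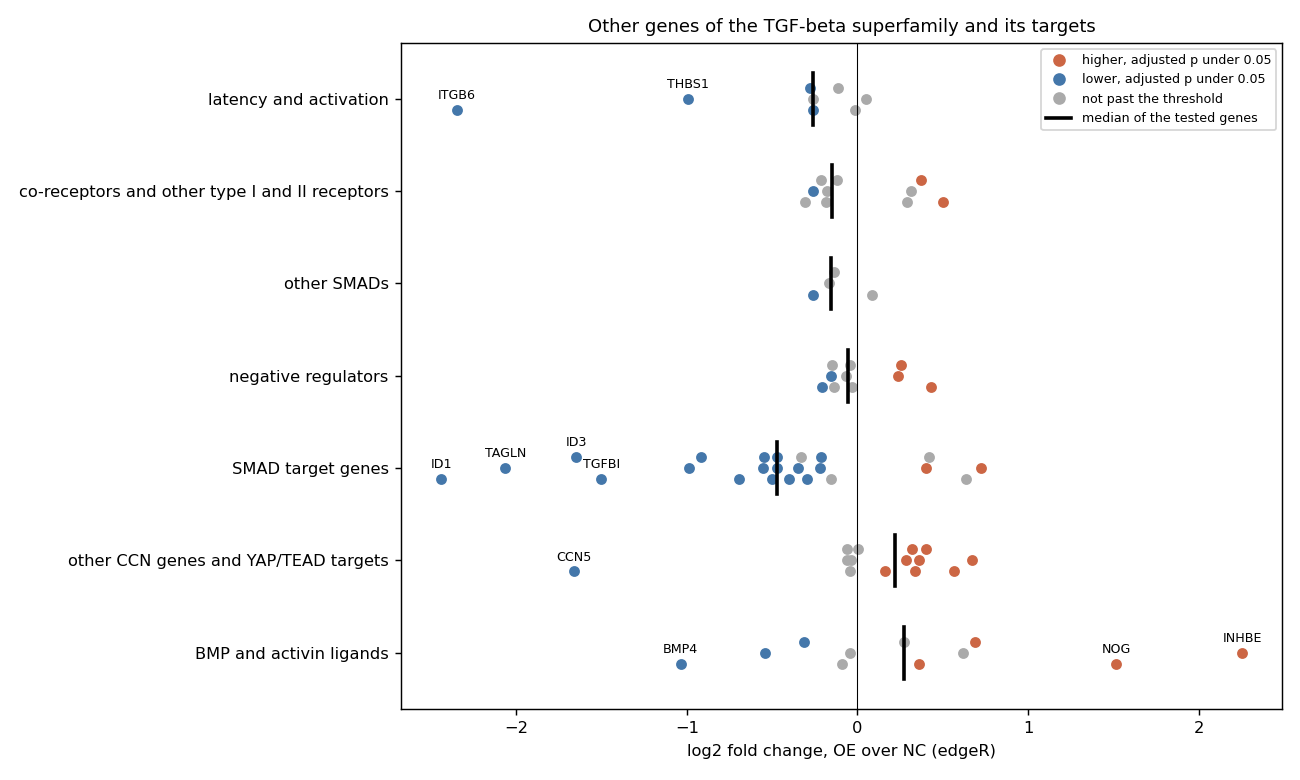
Log2 fold change of OE over NC (horizontal axis) of the 80 tested genes of the 7 lists (rows), orange where higher, blue where lower at an adjusted p under 0.05 and grey otherwise, with the median of each list as a black line. The points of the SMAD target genes lie mostly to the left, with 17 of 23 lower, and those of the YAP and TEAD list mostly to the right, with 8 of 14 higher. The lists were written with earlier results of these data known.

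The genes whose pattern over the 6 samples was most like that of TGFB1 and CCN2 were sought among the 11761 other tested genes that averaged 100 counts or more, by the root mean square difference of log2 CPM after the mean of each gene was taken off. Nearest to TGFB1 were RFC2, a replication factor C subunit, at a difference of 0.0116, COX7A2L at 0.0142 and ARF3 at 0.0156. Nearest to CCN2 were a locus named only by its clone that overlaps PSEN2 and COQ8A, at 0.0217, the membrane fusion gene SNAP23 at 0.0226 and the microtubule gene MAP7 at 0.0234. The log2 fold changes of these CCN2 neighbours were −0.48, −0.50 and −0.50. This likeness is a description over 6 samples in 2 groups.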

How the data were processed

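RNA of 3 NC and 3 OE samples was sequenced by the authors as stranded paired-end mRNA libraries. Per the methods, reads were trimmed with FASTX-Toolkit, aligned to GRCh38 with HISAT2, and uniquely mapped reads were counted per gene. The counter, its strand setting and the annotation are not given in the sources used here. The deposited count table holds raw counts without normalization. The deposited FPKM, computed by the authors from the same reads and given to 2 decimals, is relative to transcript length and mapped fragments. Groups follow the genotype entries. Samples within a group differed by more than sampling noise, with a mean chi-square per gene of 4.83 to 11.0.

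From the counts, edgeR 4.0.16 in R 4.3.3 was run on the whole table with filterByExpr, TMM and the quasi-likelihood test (15878 genes tested). Standard errors were derived from each log2 fold change and the square root of its F value. The alternatives were DESeq2 1.42.0, limma 3.58.1 on log2(FPKM) with a pseudocount of 1 or 0.1, other normalizations and filters, a test against a fold change of 1.2, a replicate block, a fit to protein-coding genes alone, and fits that left out each sample in turn. Gene positions and overlaps are from GENCODE release 44 on GRCh38, in which 99.75% of the identifiers were found without version. Promoters are from RefSeq. The members and lists were chosen with earlier results of these data known. Named genes are the members, PPM1K, up to 3 genes with the smallest adjusted p in each direction per list, and further DEGs of a list. The 3 genes nearest to TGFB1 and CCN2, and 7SK, are named too. Markers, genes too low to test, LTBP3, LTBP4 and genes the study measured by RT-qPCR are named beside them.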

Additional observations from a re-analysis of the deposited data

How the results depend on the processing

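No member changed direction under any of 17 alternatives, and 151 of 170 comparisons kept their side of the threshold. The counts of 3 higher and 6 lower members became 1 higher with upper quartile normalization, where only TGFB1 remained, and 0 higher and 2 lower (TGFB3 and CCN2) in edgeR's test against a fold change of 1.2, where an unadjusted p under 0.05 was reached by 0 higher and 3 lower members and the 19 higher and 29 lower genes of the lists became 9 and 18. Same-numbered samples did not deviate together (correlations of −0.0663 to −0.00319 over the genes tested). With 3 samples in a group this cannot tell whether they were prepared together. With the replicate block 1 member was higher and 6 were lower, SMAD7 and CCN1 having dropped out. Leaving out each sample in turn gave 1 to 3 higher members and 6 lower in each fit, the count of 1 coming without OE replicate 1, where SMAD7 and CCN1 were lost. The cause of these losses was not tested. The log2 change of the TGFB2 share of the ligands was −0.22 from FPKM and −0.15 from CPM, which is not per length. With no filter on low counts the median log2 fold change of all genes was −0.13, against 0.00, since it then includes 31369 genes. Counting error at the lowest count of a member was at most 4.17%, except for TGFB3.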

Other observations

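OE replicate 3 was the OE sample nearest to the NC mean in log2 CPM for 7 of the 10 members, TGFB1, TGFB2, TGFB3, TGFBR1, TGFBR2, SMAD7 and CCN1. For TGFB3 this was practically a tie, with a CPM of 3.41 in both OE replicate 1 and OE replicate 3. Among the 8779 tested genes whose groups did not overlap it was the nearest in 35.2%, against 33% for replicate 1 and 31.8% for replicate 2. SMAD2, the member that did not pass, was nearest in OE replicate 1, as was CCN2, and SMAD3 was nearest in OE replicate 2.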
